A study of Homo sapiens with 26 samples.

Results

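The nuclear genes for the mitochondrial respiratory chain and ATP synthase were followed across the arrays of this series: 91 of the 19775 genes that had a probe set assigned to a single gene. Members were taken by symbol: complex I genes (NDUFA, NDUFB, NDUFC, NDUFS and NDUFV), succinate dehydrogenase genes SDHA to SDHD (complex II), UQCR genes (complex III), cytochrome c oxidase genes (complex IV; COX4 to COX8 and COXFA) and ATP5 genes (ATP synthase). Pseudogenes were left out, and each gene is represented by its brightest probe set. Membership follows from the symbol and not from the measured values, but the members were chosen with earlier results of these data known. The members are 33 complex I subunits, 8 complex I assembly factors (NDUFAF), 3 complex II subunits (SDHA, SDHC and SDHD), 6 complex III genes, 20 complex IV genes, 18 ATP synthase genes and 3 non-coding RNAs whose symbols begin the same way (NDUFB2-AS1, NDUFV1-DT and NDUFV2-AS1). Of the 91, 88 passed the filter on low signals, against 15096 genes in all, and ATP5MF, COX7A1 and COX8C did not pass. Probe sets shared by several genes were not analysed here. Among them were those of NDUFS5, NDUFS8, NDUFC2 and UQCRH and another probe set of ATP5MF, so its low signal comes from its single-gene probe set alone.

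RNA of the human clear cell renal carcinoma line 786-O was hybridized to 26 Affymetrix U133 Plus 2.0 arrays. The study design names untreated cells, cells mock treated with DMSO and cells given 1 of 4 compounds picked in a screen for inhibitors of HIF-2a, the hypoxia-inducible factor subunit encoded by EPAS1. The titles give 3 arrays each for Blk, DMSO, 40, 41, 76, 77, PRC3 and WT8, and 1 array each for pTR and pTV. By elimination, Blk was read as the untreated cells and 40, 41, 76 and 77 as the compounds. The labels give no dose, no time, and no meaning for PRC3, WT8, pTR or pTV; in the field, PRC3 usually means a 786-O subline with empty vector and WT8 one in which wild-type VHL was restored, though these labels are silent on it. 786-O is known for lacking functional VHL, the subunit of the ubiquitin ligase that marks HIF-alpha proteins for degradation, and all groups share this parent line. Whether the 3 arrays of a group stem from different cultures is not in the labels, and p-values here reflect only the spread between arrays within groups. That spread was estimated over all groups with 3 arrays together.

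The respiratory chain passes electrons from NADH through complex I, or from succinate through complex II, to complex III, cytochrome c and complex IV, which reduces oxygen. Complexes I, III and IV pump protons across the inner mitochondrial membrane, and ATP synthase uses their return flow to make ATP. Most subunits are encoded in the nucleus, and a few core subunits in mitochondrial DNA. In clear cell renal carcinoma, loss of VHL leaves HIF active in the presence of oxygen, and HIF is known to favour glycolysis, to raise COXFA4L2 (formerly NDUFA4L2), a paralog of the complex IV subunit COXFA4, and to shift the COX4 subunit towards isoform COX4I2.

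The letters around known regulatory motifs are shown first, since these motifs are known from promoters of respiratory chain genes. RefSeq promoter windows (GRCh38.p14, 250 bases before to 50 after the gene start) were matched for 79 of the 91 members. The palindromic motif of nuclear respiratory factor 1 (NRF1), the capitals in the sequences that follow, was present in 5 of 79 windows (6.33%), against 1.36% of all 27305 promoter windows and 1.75% of those of protein-coding genes. These are the 5 windows, each 30 bases on the strand of its gene, with the motif in capitals.
ATP5F1C, chr10:7788145-7788174, plus strand: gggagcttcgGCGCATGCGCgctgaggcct
NDUFAF5, chr20:13785014-13785043, plus strand: agccgcgctgGCGCATGCGCacaaaaagcg
NDUFA8, chr9:122159764-122159793, minus strand: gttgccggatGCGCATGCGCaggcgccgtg
NDUFB4, chr3:120596167-120596196, plus strand: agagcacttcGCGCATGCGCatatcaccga
SDHD, chr11:112086753-112086782, plus strand: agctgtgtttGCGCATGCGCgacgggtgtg
In ATP5F1C, NDUFAF5 and NDUFA8 the motif lay within 22 bases of the gene start, and in NDUFB4 and SDHD it began 159 and 110 bases upstream.

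The ETS motif CCGGAAG, bound by factors such as GABP, was found on either strand in 19 of the 79 windows (24.1%), against 10.7% of all windows and 14.2% of those of protein-coding genes. ATP5ME and ATP5MG, which are described below, carried it on the opposite strand within 9 bases of the start.
ATP5ME, chr4:674255-674284, minus strand: tgcaggttgtgCTTCCGGtgcggaggtcag
ATP5MG, chr11:118401596-118401625, plus strand: tgcagcgggtcCTTCCGGcgggtgacattc
The hypoxia response element cores ACGTG and GCGTG were about as frequent in members as in protein-coding genes: 26.6% against 23.7% for ACGTG and 50.6% against 44.1% for GCGTG, either strand. COXFA4L3, the member with the largest changes in this series, held 1 ACGTG and 3 GCGTG cores, and the farthest upstream of each kind are shown, with the core or its reverse complement in capitals.
COXFA4L3, ACGTG on the opposite strand, chr15:45430423-45430452, plus strand: gttcgggcgcttCACGTcagccgcagaatg
COXFA4L3, GCGTG, chr15:45430465-45430494, plus strand: cgcccgggagtcGCGTGcccaacggggaaa
A match describes letters in a window and says nothing of whether a factor binds there.

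Signals are quantile normalized values of the deposited table, with a floor of 20. They were compared between groups with limma on the log2 scale over all 35013 probe sets that passed the filter, and a gene is called where its Benjamini-Hochberg adjusted p is below 0.05. The deposited mean signal was 141 on 24 arrays and 164 and 171 on replicates 2 and 3 of compound 40. Replicate 3 of WT8 had a 3′ to 5′ ratio of 2.37 for ACTB (other arrays at most 1.39) and of 1.32 for GAPDH (at most 1.06). Of the 81 members that were off the floor on all 24 replicated arrays, it held the lowest value of 28 and the highest of 11. Of the renal tubule markers, PAX8 (761 to 1330), KRT8 (570 to 1420) and KRT18 (821 to 2100) were well off the floor on every array. KRT19 (135 to 1170) and CDH6 (47.6 to 967) varied widely between arrays, while PAX2 read 22.1 to 177 and LHX1 20 to 44.4. Of the markers of leukocytes, endothelium and liver, PTPRC, CD14, VWF and ALB lay at the floor throughout and CD3E, LYZ, CDH5 and APOA1 read 20 to at most 31.2, but CD79A read 43.7 to 85.8 and PECAM1 45.5 to 117. EPAS1 was 427 to 571 in Blk, 402 to 556 with DMSO, 386 to 535 with compound 40, 250 to 542 with 41, 253 to 445 with 76, 404 to 517 with 77, 608 to 925 in PRC3, 502 to 575 in WT8, 344 on pTR and 789 on pTV. VHL ran from 39.6 to 83.8 in PRC3 and from 42 to 68 in WT8, which overlap, and the part of the transcript that its probe set reads was not checked.

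DMSO alone left the module where it was in untreated cells to within the precision of these arrays. None of the 88 members was called between DMSO and Blk, and none had an unadjusted p below 0.05; over all genes limma also called 0 (0%), with 2.02% at an unadjusted p below 0.05. The members' median log2 change was -0.01, and the 95% interval lay within 1.5-fold for 75 of the 88.

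COXFA4L3 (also known as C15orf48) is a paralog of COXFA4 that can take its place in complex IV, and it showed the largest changes of the module. Its signals were 1040, 1210 and 923 in untreated cells and 907, 1170 and 818 with DMSO. Compound 40 gave 311, 420 and 383, compound 76 gave 249, 619 and 409, and compound 41 gave 489, 738 and 511. With compound 77 they were 760, 1490 and 875. Thus the arrays of compounds 40, 41 and 76 all lay below every DMSO array, whereas those of compound 77 overlapped DMSO. In RNA from bulk cultures, fewer expressing cells and less RNA per cell cannot be told apart.

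COXFA4L3 fell with compound 40 (log2 change -1.37, SE 0.289, 2.59-fold, limma adjusted p = 0.0234) and with compound 76 (-1.26, SE 0.289, 2.40-fold, adjusted p = 0.0245). It was the 1 member called in each of these comparisons, in which 0.855% and 1.78% of all genes were called (0.417% and 0.768% of all genes as lower). With compound 41 the change was -0.75 and missed the threshold (adjusted p = 0.216, or 0.0556 when replicate number entered as a block). With compound 77 it was 0.06, with a 95% interval of -0.53 to 0.66. Both calls were near the threshold: the adjusted p was 0.0877 for compound 40 and 0.131 for compound 76 after median scaling, and each call was kept in 2 of the 6 fits that left out 1 array. For compound 40 the call was lost without its replicate 2 or 3 or without DMSO replicate 1 or 2, and for compound 76 without its replicate 1 or 3 or without DMSO replicate 1 or 2. Neither call held with a floor of 50 (limma adjusted p 0.0782 and 0.073) or without the filter (0.104 and 0.103). The same was true with only the compared groups fitted (0.142 and 0.222). Both calls held with log2(signal + 20) and with the replicate block. The 4 compound comparisons share the same 3 DMSO arrays.

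In the sublines COXFA4L3 read 668, 991 and 1420 in PRC3 and 270, 277 and 386 in WT8, so every WT8 array lay below every PRC3 array. It fell by 1.67 on the log2 scale in WT8 (SE 0.289, 3.19-fold, limma adjusted p = 7.49e-04), and the call held in all 6 fits that left out 1 array. Between PRC3 and Blk the log2 change was -0.10, with an adjusted p of 0.961. On the single arrays it read 49.1 on pTR and 961 on pTV, a 19.6-fold gap with no replicate.

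**Figure D1:**
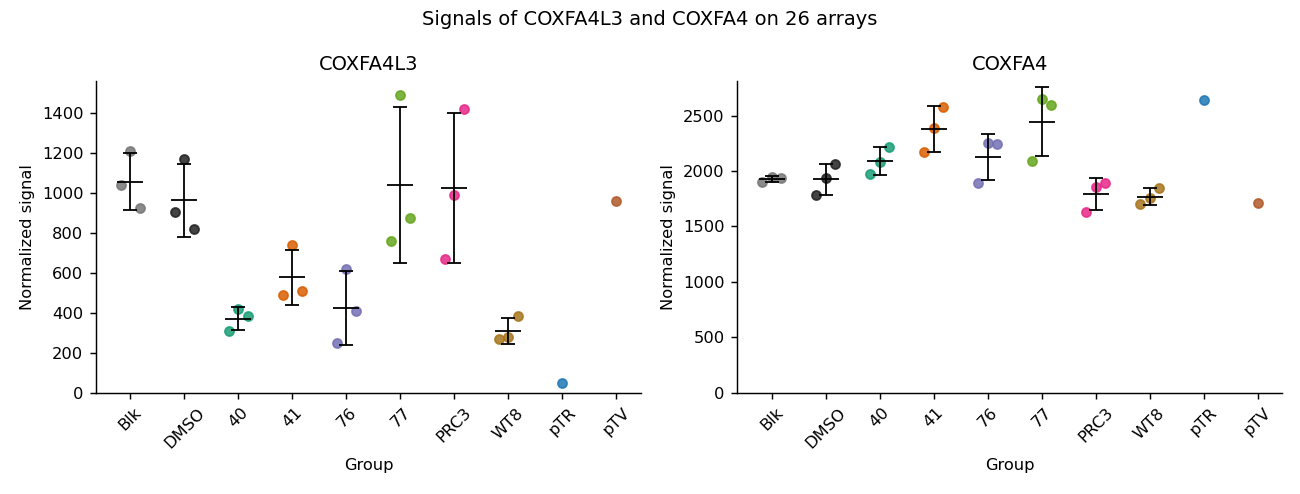
Normalized signal (linear axes from 0) of COXFA4L3 and its paralog COXFA4 on each of the 26 arrays by group; points are arrays, and bars show the mean and SD of 3 arrays. COXFA4L3 is low with compounds 40, 41 and 76 and in WT8 and is 49.1 on pTR, while COXFA4 stays between 1630 and 2650.

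COXFA4, the subunit that COXFA4L3 resembles, showed no fall where its paralog fell. Its signals were 1780, 1940 and 2060 with DMSO, 2170, 2390 and 2580 with compound 41, and 2090, 2650 and 2600 with compound 77. Compounds 40 and 76 gave 1970 to 2220 and 1890 to 2250, which overlap DMSO. COXFA4 passed the test for the mean of the 4 compounds against the mean of Blk and DMSO (log2 change 0.22, 1.17-fold, limma adjusted p = 0.0409), though not after median scaling (0.239). With compound 41 alone the change was 0.31, with an adjusted p of 0.148, or 0.0248 with the replicate block. WT8 and PRC3 overlapped at 1700 to 1850 and 1630 to 1890, with a log2 change of -0.01.

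The other paralog, COXFA4L2, is a hypoxia-induced gene known for its high expression in clear cell renal tumours, and here its probe set read 20 to 35.8, with 12 of 24 arrays at the floor. COX4I2, the hypoxia-linked isoform of the COX4 subunit, read 20 to 87.7, and COX6A2, the muscle isoform of COX6A, read 20 to 52.1. COX4I2 and COX6A2 were at the floor on 1 of 24 arrays each, and neither was called in any comparison. The common isoform COX4I1 read 2520, 2480 and 2550 with DMSO, with changes of -0.07 to 0.19 on the log2 scale under the 4 compounds, none of them called. COX6A1, the widely expressed COX6A, and COX7A2, its counterpart for COX7A, were called in no comparison with DMSO, PRC3 or Blk either.

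With compound 41 the module leaned upward. Of the 88 members 4 were called, all higher, which is 4.55% against 3.34% of all genes called and 1.70% called higher. The members' median log2 change was 0.16 against 0.01 for all genes, and 70 of 88 (79.5%) lay above 0 against 52.7% of all genes. By role, 27 of 33 complex I subunits (median 0.23), 8 of 8 complex I assembly factors (0.17), 14 of 17 ATP synthase genes (0.15) and 13 of 18 complex IV genes (0.10) lay above 0. The summed signal of the members was 123200, 121200 and 127300 with compound 41 and 110800, 110400 and 114800 with DMSO. With compound 77 it was 116400, 121100 and 114900, also above every DMSO array. Untreated cells gave 110400, 115000 and 111000. The shift with compound 41 is small for any single gene. Of the 88 members, 5 passed 1.5-fold, against 10.7% of all genes, and the 95% intervals reached a median of 0.28 to either side.

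NDUFAF1, a factor that assembles the membrane arm of complex I, rose most with compound 41. It read 96.2, 89.1 and 79.5 with DMSO, 68.3, 102 and 88 in untreated cells and 206, 161 and 188 with compound 41. Compounds 40, 76 and 77 gave 92.3, 176 and 124, then 112, 193 and 150, then 114, 148 and 121. All arrays of compounds 41, 76 and 77 lay above every DMSO array, and 1 array of compound 40 did not. The log2 change with compound 41 was 1.06 (SE 0.23, 2.09-fold, limma adjusted p = 0.0107), and the call was lost without compound 41 replicate 1 or DMSO replicate 3. The changes with compounds 40, 76 and 77 were 0.52, 0.75 and 0.53, and none was called (adjusted p 0.371, 0.13 and 0.594).

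NDUFB3, an accessory subunit of the membrane arm, rose with compound 41 and over the 4 compounds together. It read 832, 794 and 825 with DMSO and 1200, 1050 and 1280 with compound 41. Compounds 40, 76 and 77 gave 959 to 1050, 1030 to 1120 and 956 to 1070, all above every DMSO array. The change with compound 41 was 0.52 (SE 0.12, 1.44-fold, limma adjusted p = 0.0167), and it was kept in 1 of 6 fits that left out 1 array. Over the 4 compounds together NDUFB3 rose by 0.40 (adjusted p = 0.00119) and NDUFAF1 by 0.74 (adjusted p = 0.00187), and both calls held in all 18 fits that left out 1 array.

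NDUFB8 and NDUFC1, also accessory subunits of the membrane arm, were called with compound 41 close to the threshold. NDUFB8 read 870, 896 and 817 with DMSO and 1150, 1090 and 1120 with compound 41, a log2 change of 0.38 (limma adjusted p = 0.0361). NDUFC1 read 1340, 1240 and 1260 with DMSO and 1650, 1900 and 1650 with compound 41, a change of 0.43 (adjusted p = 0.0493). Neither group pair overlapped, but neither call held in any of the 6 fits with 1 array left out. Averaged over all their probe sets, the changes were 0.33 for NDUFB8 (adjusted p = 0.182) and 0.22 for NDUFC1 (0.503). With the replicate number as a block, 7 members were called with compound 41, all higher (2.84% of all genes). COXFA4, NDUFA8 (0.47, limma adjusted p = 0.0229) and NDUFAB1 (0.33, 0.0426) joined the 4. The block is 1 replicate effect over all 8 groups. With each group's mean subtracted, same-numbered arrays of compound 41 and DMSO correlated at 0.172 to 0.206. Those of compounds 40 and 77 did not pair with DMSO by the rule given below.

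**Figure D2:**
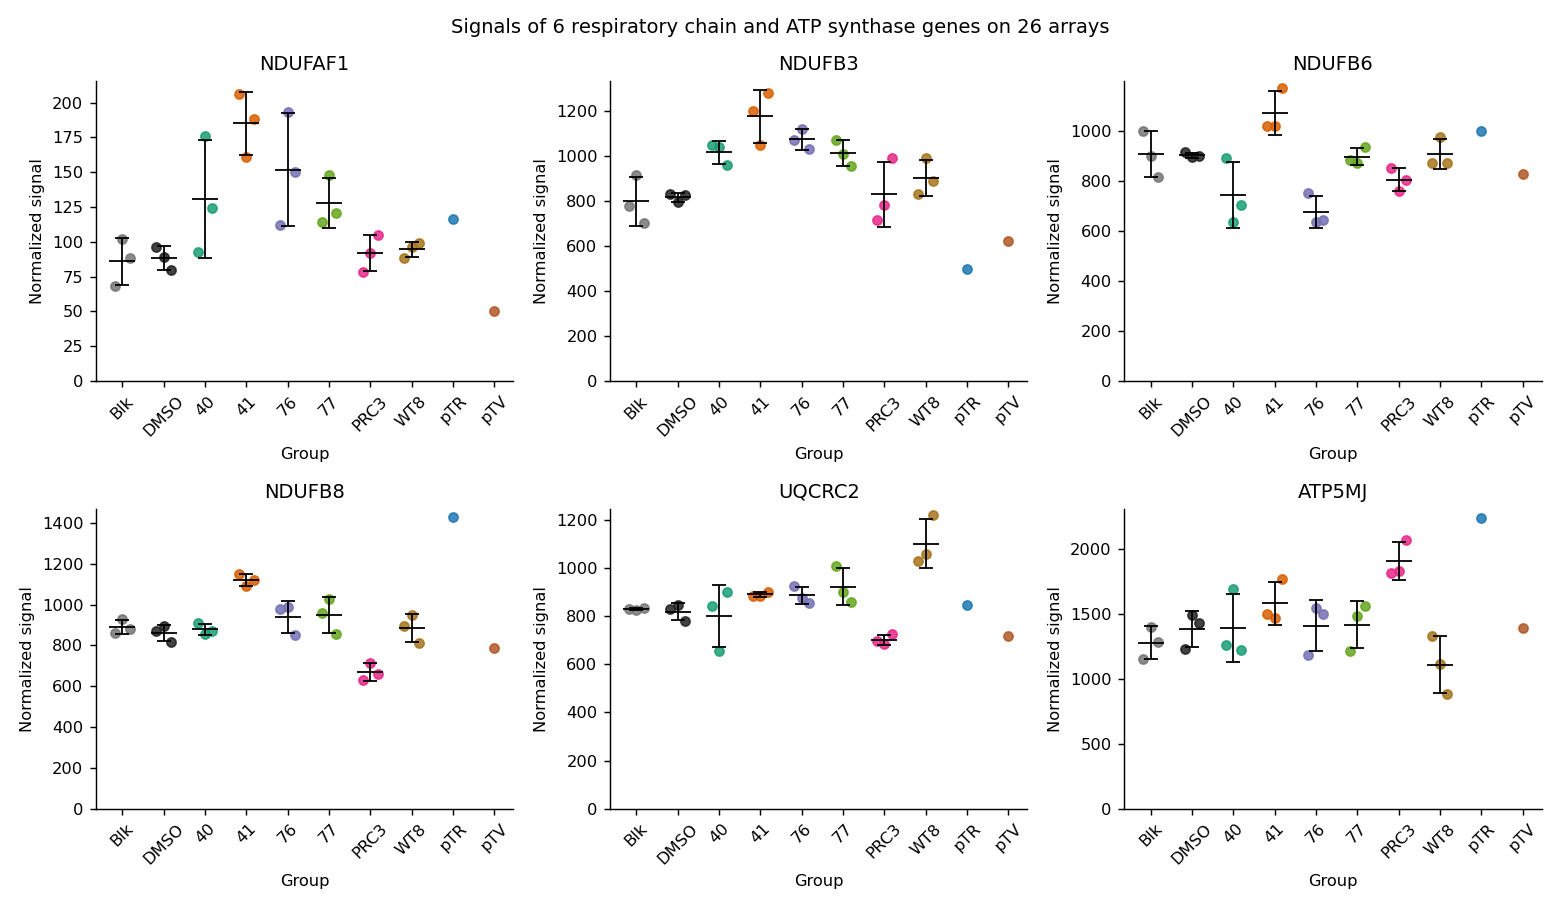
Normalized signal (linear axes from 0) of 6 members on each of the 26 arrays by group; points are arrays, and bars show the mean and SD of 3 arrays. NDUFAF1, NDUFB3 and NDUFB8 are high with compound 41, NDUFB6 is low with compounds 40 and 76, and UQCRC2 and ATP5MJ separate WT8 from PRC3 in opposite directions.

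NDUFV1, the complex I subunit that binds NADH, and NDUFV3, an accessory subunit beside it, were measured in opposite directions. NDUFV1 read 525, 508 and 523 with DMSO, and its values with the 4 compounds ran from 347 to 471, all lower. The log2 changes were -0.52, -0.36, -0.30 and -0.39 with compounds 40, 41, 76 and 77, none of them called (limma adjusted p 0.138 to 0.526). Untreated cells read 498, 419 and 437, so they overlapped the compound arrays. NDUFV3 read 388, 303 and 350 with DMSO and 465, 585 and 579 with compound 41, a change of 0.65 (adjusted p = 0.188).

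Few members were called with compounds 77, 76 and 40. With compound 77 none of the 88 was called by limma, 6 (6.82%) had an unadjusted p below 0.05 beside 8.19% of all genes, and 0.179% of all genes were called; the members' median was 0.06. With compound 76 the median was 0.01. NDUFB6, another membrane-arm subunit, read 914, 894 and 897 with DMSO and 749, 636 and 642 with compound 76, which do not overlap. Its change was -0.42, with an adjusted p of 0.081, or 0.0386 with the replicate block. With compound 40 the median was 0.03, and the largest measured rise among the brighter members was that of NDUFAF1. COX7A2L, a factor that joins complexes III and IV into supercomplexes, read 1060, 1080 and 1130 with DMSO and 1210, 1660 and 1510 with compound 40 (0.41, adjusted p = 0.0696).

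Against the mean of Blk and DMSO, the mean of the 4 compounds gave 6 called members, 5 higher and 1 lower, or 6.82%, beside 7.47% of all genes (3.66% higher and 3.81% lower). Besides NDUFB3, NDUFAF1, COXFA4 and the falling COXFA4L3 (-0.90, limma adjusted p = 0.00253), these were NDUFA8 and ATP5MG. NDUFA8, a complex I accessory subunit whose NRF1 motif is shown above, averaged 799 against 651 (0.28, adjusted p = 0.0426). ATP5MG, the g subunit of the ATP synthase membrane part, averaged 2180 against 1860 (0.23, adjusted p = 0.0452). Each of NDUFA8, COXFA4 and ATP5MG was lost in 12 or more of the 18 fits that left out 1 array. With the replicate block 10 members were called, beside 10.7% of all genes. Replicate numbers did not pair compounds 40 and 77 with DMSO by the rule given below.

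**Figure D3:**
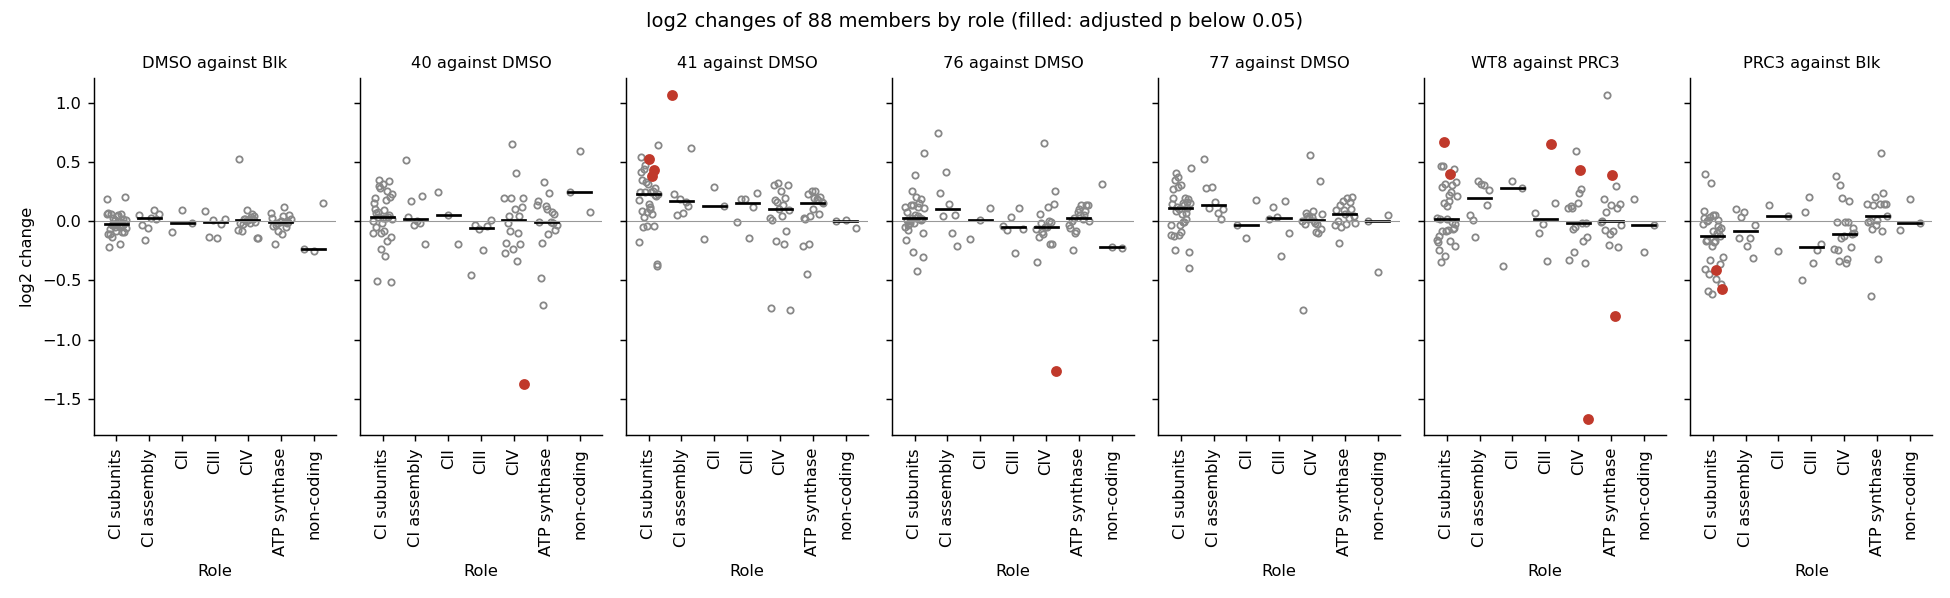
log2 change of each of the 88 members (points) in 7 comparisons, by role; black lines are medians and filled points have an adjusted p below 0.05. Complex I subunits sit above 0 with compound 41 (27 of 33) and below 0 in PRC3 against Blk (24 of 33), and COXFA4L3 is the lowest point with compounds 40 and 76 and in WT8.

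The 6 pairs of compounds were compared in the same fit, with p-values adjusted over probe sets within each pair; doses and times are not given, so compound and dose cannot be told apart. Compound 41 exceeded compound 40 in 4 members (0.722% of all genes called, 0.537% higher), namely NDUFB6 (0.54), NDUFC1 (0.60), the complex I assembly factor NDUFAF8 (0.81) and ATP5F1E, the epsilon subunit of ATP synthase (0.41), with limma adjusted p from 0.0174 to 0.043. NDUFB6 read 1020, 1020 and 1170 with compound 41, 891, 634 and 702 with compound 40 and 881, 872 and 936 with compound 77. It was lower with compound 76 than with compound 41 (-0.66, adjusted p = 0.0118), where 0.146% of all genes were called. NDUFAF8 read 506, 536 and 513 with compound 41, above the 274 to 321 of compound 40. With compound 40, NDUFC1 read 1360, 916 and 1180 and ATP5F1E 3240, 2830 and 2550. The lower values of compound 40 thus lay on its replicates 2 and 3, whose deposited means were 164 and 171. Replicate 2 held the lowest value of 11 and the highest of 14 of the 81 members off the floor. None of the 6 pairs was refitted with an array left out or under another setting.

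COXFA4L3 was higher with compound 77 than with compound 40 (log2 difference 1.44, 95% interval 0.84 to 2.03, limma adjusted p = 0.027) and than with compound 76 (1.32, interval 0.73 to 1.92, adjusted p = 0.031); 0.576% and 0.662% of all genes were called in these pairs. It was the 1 member called in each. Between compounds 76 and 40 the difference was 0.11 with an interval of -0.49 to 0.71, which leaves room for a change of more than 1.5-fold. No member was called between compounds 76 and 40 (0.152% of all genes) or between 77 and 41 (0.643%), where limma gave 12 and 11 members (13.6% and 12.5%) an unadjusted p below 0.05, beside 9.91% and 9.74% of all genes.

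WT8 and PRC3 differed in 7 members, 5 higher and 2 lower in WT8, which is 7.95% beside 5.97% of all genes (3.25% higher and 2.72% lower). Without WT8 replicate 3, which stands apart in its 3′ to 5′ ratios, 8 were called, and the members' median moved from 0.02 to 0.11. The split depended on scaling: 0 higher and 2 lower after median scaling, and 1 higher and 2 lower with the signals as deposited. With the replicate block, which is 1 replicate effect over all 8 groups, 10 were called, beside 8.70% of all genes. With each group's mean subtracted, same-numbered arrays of WT8 and PRC3 correlated at 0.107 to 0.457.

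UQCRC2, a core protein of complex III, read 697, 685 and 726 in PRC3 and 1030, 1060 and 1220 in WT8. Its log2 change was 0.65 (SE 0.108, 1.57-fold, limma adjusted p = 4.80e-04), and the call held with any 1 array left out but not after median scaling (0.53, adjusted p = 0.0756). Averaged over its probe sets the change was 0.40 (adjusted p = 0.00517). For UQCRC2, untreated cells read 829, 828 and 837, between the sublines. Its partner UQCRC1 read 785, 663 and 669 in PRC3 and 795, 649 and 335 in WT8, which overlap. ATP5MJ, a small membrane subunit of ATP synthase, read 1810, 1830 and 2070 in PRC3 and 1330, 1110 and 885 in WT8. It fell by 0.80 in WT8 (adjusted p = 0.00212), also with any 1 array left out and after median scaling, and by 0.53 when averaged over its probe sets (adjusted p = 0.00887). Untreated cells, at 1150, 1400 and 1280, were nearer to WT8.

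NDUFAB1, the mitochondrial acyl carrier protein that is also a complex I subunit, read 1350, 1680 and 1580 in PRC3 and 1980, 2570 and 2810 in WT8 (log2 change 0.67, limma adjusted p = 0.0149). COX7A2L read 808, 858 and 931 in PRC3 and 1140, 1170 and 1190 in WT8 (0.43, adjusted p = 0.0128). NDUFB8 read 632, 716 and 660 against 896, 947 and 811 (0.40, adjusted p = 0.0153). These pairs of groups did not overlap, but averaged over its probe sets the change of NDUFB8 was 0.17 and was not called (adjusted p = 0.54). ATP5ME, the e subunit of ATP synthase, read 987, 913 and 1060 in PRC3 and 1400, 1190 and 1280 in WT8 (0.39, adjusted p = 0.0432). The call for ATP5ME was kept in 1 of 6 fits with 1 array left out, those for NDUFAB1, NDUFB8 and COX7A2L in 3, 4 and 5. That for NDUFAB1 was lost without WT8 replicate 2 or 3 or without PRC3 replicate 1. Untreated cells read 1080, 1150 and 1070 for COX7A2L, 1110, 1390 and 1200 for ATP5ME and 861, 931 and 879 for NDUFB8. For these genes they overlapped WT8 and lay above every PRC3 array. For NDUFAB1 they read 1560, 2190 and 2080, which overlapped both sublines.

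ATP5IF1, the inhibitor that keeps ATP synthase from running backwards, had the largest measured rise in WT8 but a wide spread between arrays. It read 1140, 876 and 1320 in PRC3 and 2460, 1470 and 3360 in WT8, where every array was higher. The log2 change of 1.07 had an SE of 0.355 and a limma adjusted p of 0.0949, or 0.0429 with the replicate block. With compound 40 it read 1050, 266 and 776 against 924, 1290 and 799 with DMSO, and the low value came from replicate 2 of that compound.

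The PRC3 subline differed from untreated cells in 2 members, both complex I subunits and both lower, or 2.27% beside 1.41% of all genes (0.921% lower). NDUFV2, an iron-sulfur subunit of the NADH-oxidizing part, read 1090, 1290 and 1360 in Blk and 924, 814 and 774 in PRC3 (log2 change -0.57, limma adjusted p = 0.0291). NDUFB8 read 861, 931 and 879 in Blk and 632, 716 and 660 in PRC3 (-0.41, adjusted p = 0.0391). Of the 33 complex I subunits 24 lay below 0, with a median of -0.12, and 14 of 18 complex IV genes did so, with a median of -0.11. ATP synthase genes leaned the other way, with 11 of 17 above 0 and a median of 0.04, and of 6 complex III genes 2 lay above 0. Of all 88 members 36.4% lay above 0, beside 48.5% of all genes. With 1 array left out, NDUFB8 was called in 0 of 6 fits and NDUFV2 in 2 of 6, and averaged over its probe sets NDUFB8 gave -0.33 (adjusted p = 0.226).

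None of the 3 complex II members was called in any comparison, and SDHB was not among the members. SDHA, the subunit that binds FAD, read 569, 526 and 545 with DMSO, 650, 683 and 595 in PRC3 and 445, 599 and 453 in WT8. SDHC, a membrane anchor, read 537, 490 and 509 with DMSO and 681, 588 and 610 with compound 41 (log2 change 0.29, limma adjusted p = 0.462). SDHD, the other anchor and 1 of the 5 genes with an NRF1 motif, read 625, 606 and 548 with DMSO and 633, 660 and 647 with compound 41 (0.13, adjusted p = 0.828).

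**Figure D4:**
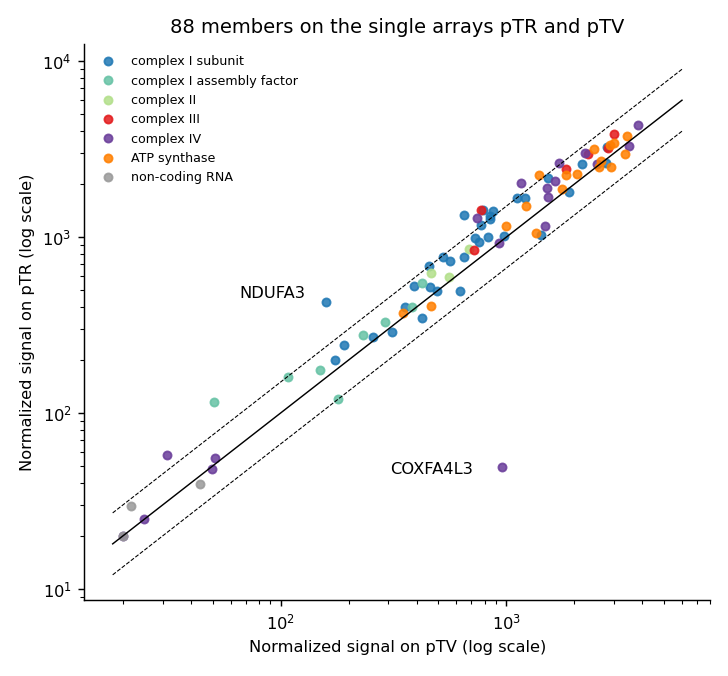
Normalized signal of the 88 members on the single arrays pTR (vertical) and pTV (horizontal), both on log axes, coloured by role; the solid line marks equality and the dashed lines 1.5-fold. COXFA4L3 lies far below the line, at 49.1 against 961, and NDUFA3 farthest above it, at 428 against 158.

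On the single arrays pTR and pTV no test is possible. Of the 88 members 15 were at least 1.5-fold higher on pTR and 1 was lower, beside 18.4% and 12.6% of all genes. The members' median log2 difference was 0.23 against 0.01 for all genes, and 77.3% of members lay above 0 against 50.6% of genes. The highest ratios were 2.70-fold for NDUFA3 (428 against 158), 2.29-fold for NDUFAF1 (116 against 50.5) and 2.05-fold for NDUFA13 (1330 against 652), complex I genes. COXFA4 was higher on pTR (2640 against 1710) and COXFA4L3 was the 1 member past 1.5-fold in the other direction.

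Other mitochondrial genes were read from the same fit; no single-gene probe set was found for the 13 subunits encoded in mitochondrial DNA. Among 37 measured assembly factors and cytochrome c genes outside the rule, SDHAF1, an assembly factor of complex II, rose with compound 40 (log2 change 0.78, limma adjusted p = 0.0438). TIMMDC1, a complex I assembly factor, rose with compound 76 (0.56, adjusted p = 0.00585). COX16, an assembly factor of complex IV, rose with compound 41 (0.56, adjusted p = 0.0337), and none of the 37 was called in WT8 or PRC3. Of all genes, 0.855% were called with compound 40, 1.78% with compound 76 and 3.34% with compound 41. The shares were 5.97% in WT8 against PRC3 and 1.41% in PRC3 against Blk. Over the 4 compounds together, 3 of the 37 (8.11%, beside 7.47% of all genes) were called, TIMMDC1 and SDHAF1 higher and COX11, which delivers copper to complex IV, lower (-0.34, adjusted p = 0.00425).

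UCP2, a mitochondrial carrier of the uncoupling protein family, showed the largest change of any listed gene with compound 41: it averaged 698 against 182 with DMSO, 3.78-fold (log2 change 1.92, limma adjusted p = 1.83e-04). It was the 1 of 9 carriers and channels called there; in WT8 the 1 called was VDAC1, an outer membrane channel (0.53, adjusted p = 0.0281). Of 15 TCA cycle and pyruvate dehydrogenase genes, SUCLG1, the alpha subunit of succinyl-CoA ligase, was higher in WT8 than in PRC3 (0.50, adjusted p = 8.70e-04) and lower in PRC3 than in Blk (-0.36, adjusted p = 0.0455). Of 10 hypoxia-linked mitochondrial genes, BNIP3, a mitophagy receptor, rose in WT8 (0.47, adjusted p = 0.0213), and FUNDC1, another such receptor, rose with compound 41 (0.54, adjusted p = 0.0273). None of 12 regulators of mitochondrial biogenesis, among them NRF1, GABPA and TFAM, and none of 18 import genes was called in any comparison with DMSO, Blk or PRC3. In these comparisons 0% to 7.47% of all genes were called. The share was 3.34% with compound 41, 5.97% in WT8 against PRC3 and 1.41% in PRC3 against Blk. Counts of 0 or 1 in lists this short are not set apart from such shares.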

How the data were processed

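RNA of 786-O cells was measured on 26 one-colour arrays. The table holds the authors' deposited signal intensity per probe set, made with MAS5 per the submitters' processing notes, of unstated version and scaling. Per the labels, values were limited to 20 to 16000 and flat genes removed, but the table holds values under 20 and 54613 probe sets. The 62 control probe sets were dropped, the rest quantile normalized, limited to the same range and taken as log2. A probe set was kept if 3 or more of the 24 replicated arrays reached their own median there (35013).

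limma 3.58.1 in R 4.3.3 fitted the 8 groups of 3 together (residual df 16, eBayes with trend), with Benjamini-Hochberg adjustment over kept probe sets; the analysis was checked on simulated data. Genes were named from the platform annotation, updated through RefSeq. 41 members have 1 probe set and 50 several, of which the brightest is used. Array number limits precision. Replicate numbers were taken to pair samples where all 3 same-numbered deviations from the group mean correlated above 0.1. This held for DMSO and Blk (0.146 to 0.293) and for 41 and DMSO (0.172 to 0.206). It also held for 76 and DMSO (0.184 to 0.275) and for WT8 and PRC3 (0.107 to 0.457). It did not hold for 40, 77 or PRC3 against Blk, and it was not computed for the 4 compounds together. The block is 1 replicate effect over all 8 groups, and no correlation was computed between differently numbered arrays.

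Members and gene lists were chosen with earlier results of these data known. Named genes are called members, the 3 largest rises and falls per comparison with a group mean of at least 100, and complex II, COX isoforms, COXFA4 paralogs, ATP5IF1, EPAS1 and VHL; a selection of these is printed. NDUFB6, NDUFAF8 and ATP5F1E, called between compounds, and UCP2 were described after their values were seen. The alternatives were scaling, floor, filter, log offset, probe set averaging, groups fitted alone, replicate block and leaving out each array.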

Additional observations from a re-analysis of the deposited data

How the results depend on the processing

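The members' median change kept its sign under the scaling, floor, filter, offset, block and averaging settings with compounds 40, 41, 76 and 77. It also did so with the 4 compounds together and in PRC3 against Blk. In WT8 against PRC3 it went from 0.0212 to -0.0436 after median scaling, where the median of all genes was -0.047. With compound 40 the members' median moved by more than the spread between arrays to 0.132 on the signals as deposited (all genes 0.0773). After median scaling it moved by more than that spread to 0.249 with compound 41 (all genes 0.0531) and 0.0845 with compound 76 (all genes 0.0403). Counts of called members were less stable. Median scaling gave 3 for the 4 compounds together, 0 for compound 40, 1 for 41, 0 for 76, 0 for PRC3 against Blk and 2 for WT8; the signals as deposited gave 0 for compound 40, 2 for 41, 0 for PRC3 against Blk and 3 for WT8. Fitting only the groups compared, with fewer arrays behind the spread, gave 10 for the 4 compounds together, 0 for compound 40, 1 for 41, 0 for 76, 0 for PRC3 against Blk and 0 for WT8. The replicate block gave 7 for compound 41, 2 for 76 and 10 for WT8. Where the numbers did not pair the samples, it gave 2 for compound 40, 1 for 77 and 4 for PRC3 against Blk. It gave 10 for the 4 compounds together, for which pairing was not computed and which include compounds 40 and 77. No filter gave 0 for compounds 40 and 76, and log2(signal + 20) gave 1 for PRC3 against Blk. A floor of 50 gave 0 for 76 and 1 for 40, which was a rising member in place of COXFA4L3. Leaving out both later columns of compound 40, chosen after seeing the data, gave 0 for that compound and reversed ATP5IF1 there to 0.095; between DMSO and Blk, NDUFA1 ran from -0.0527 without Blk replicate 1 to 0.315 without Blk replicate 2. Leaving out 1 array gave medians of 0.0455 to 0.0654 and 3 to 9 calls for the 4 compounds together, 0.0127 to 0.0596 and 0 to 4 for compound 40, 0.141 to 0.174 and 0 to 2 for 41, 0.00153 to 0.0375 and 0 to 1 for 76, 0.0248 to 0.0749 and 0 for 77, -0.0272 to 0.0108 and 0 for DMSO against Blk, -0.0955 to -0.05 and 0 to 1 for PRC3 against Blk, and -0.0177 to 0.105 and 3 to 8 for WT8. The causes were not tested. Low signal limits what can be said of COXFA4L2, at the floor on 12 of 24 arrays.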
